A study of Triticum aestivum with 78 samples.

Results

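LTP3 (TaLTP3) is a lipid transfer protein gene of bread wheat, Triticum aestivum, annotated on chromosome 5B of the IWGSC CS RefSeq v2.1 assembly as LOC543095. Its probe sets were found by the identifier of their cluster on the wheat array and by the symbols LTP3 and TaLTP3 in the platform annotation. The cluster held 5 of the 61115 wheat probe sets tested and 3 of the 771 annotated genes. A probe set of type "x" is one in which some probes may also match other sequences, and 3 of the 5 are of this type. The bright probe set annotated to LTP3, of type x, is called the LTP3 probe set below, and a faint one annotated to the same gene the dim LTP3 probe set. The other 3 are annotated to genes on other chromosomes that carry locus numbers only. They are taken up here because they share the cluster, and whether they are copies of LTP3 was not tested. The 5A probe set and the 5A x-type probe set belong to LOC100037539 on chromosome 5A, and the 5D probe set, also of type x, belongs to LOC778422 on chromosome 5D. Levels at the probe sets of type x can contain signal from more than 1 of these genes.

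Non-specific lipid transfer proteins are small secreted plant proteins, folded around a hydrophobic tunnel that binds fatty acids and other lipids and held together by conserved disulphide bridges. They are abundant in the outer cell layers of plant organs, are linked to the deposition of cutin and wax and to defence against microbes, and in cereal grains they include major proteins of the aleurone and the surrounding coats. In a hexaploid such as bread wheat a gene is commonly present as a near-identical copy in each of the A, B and D genomes.

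The study profiled 39 lines bred from the cross RL4452 x AC Domain, a mapping population, with each line sampled as 2 biological replicates and 1 Affymetrix wheat array per replicate, 78 arrays in all. Every array carried mRNA of whole developing seeds taken 5 days after anthesis from plants grown in the field, so all lines share the tissue, the stage and the site. The field held 49 entries of a lattice in 3 replications, and the labels do not say which replication gave which array. The parents and the marker genotypes of the lines were not analysed here, so no level can be assigned to a parental allele. Each tube of seed came from tagged spikes and holds a mixture of pericarp, endosperm and embryo. In such bulk seed, fewer cells of a type and less mRNA per cell cannot be told apart.

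Array medians spanned intensities of 32.1 to 36.4, and each line mean rests on 2 arrays, which sets its precision. The 2 arrays of line G30 went against each other over the probe sets at or above the median level. Their deviations from the probe set means correlated at -0.33. Whether both carry seed of that line cannot be told from these values, so the effect of line on LTP3 is given below also without each of them. The same correlation was -0.11 for H9, -0.08 for F82 and -0.02 for G13. Arrays labelled replicate 2 and replicate 1 were recorded under different project names and scanned on different days, with 1 of 15 scan days holding both numbers. Scan campaign and replicate number therefore cannot be told apart. Among seed markers, the 28 probe sets of histones and tubulins of dividing tissue reached log2 levels of up to 13.58. The 31 of green pericarp reached up to 14.65 and the 4 of endosperm starch up to 10.97. These are the brightest members: in the same order, 28, 7 and 3 of the probe sets were at or above the median level.

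The LTP3 probe set was among the brightest features of the developing seed. Its log2 intensity averaged 13.75 over the 78 arrays (SD 0.32), with a lowest array of 12.60, a median of 13.79 and a highest array of 14.25. Of the 61115 probe sets, 0.0524% had a higher mean, which put it at rank 33. Intensities of different probe sets are not amounts of transcript, so the rank describes brightness only. Ranked by its lowest array in place of its mean, the probe set stood at 182.

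The other bright probe sets of the cluster were as near the top. The 5A probe set averaged 13.88 and ranked 20, the 5A x-type probe set averaged 14.00 and ranked 13, and the 5D probe set averaged 14.00 and ranked 12. Their arrays spanned 13.49 to 14.13, 13.52 to 14.24 and 13.67 to 14.25. The brightest probe set of each array lay between 14.38 and 14.76, so all 4 sat close to the upper end of the scale. Whether levels were compressed there was not tested. The dim LTP3 probe set averaged 5.40 (SD 0.70), ranked 27752 and lay near the median of all probe sets, 5.07.

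The lines were ordered by their mean log2 level at the LTP3 probe set, each over 2 arrays with the SD. The lowest line, H10, had 12.60 in replicate 2 and 13.49 in replicate 1, and the next, A35, had 13.14 in replicate 2 and 12.99 in replicate 1. E5 averaged 13.28 ± 0.39, G32 13.34 ± 0.41 and DH91 13.35 ± 0.11. These 5 lines form the low tail of the order, and the lowest 6 of the 78 arrays came from H10, G30, A35, E5 and G32, with both arrays of A35 among them.

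The lines that followed were spaced in small steps. D39 averaged 13.51 ± 0.33, B33 13.54 ± 0.26, G30 13.56 ± 0.84, C58 13.56 ± 0.08, A81 13.60 ± 0.25, A10 13.60 ± 0.24 and C25 13.61 ± 0.06. DH95 averaged 13.70 ± 0.09, G13 13.71 ± 0.47, H8 13.75 ± 0.03, C22 13.76 ± 0.08, F38b 13.77 ± 0.26 and B10 13.77 ± 0.30. The middle of the order was reached at F38a, with 13.82 ± 0.48, which stood just above F87 with 13.81 ± 0.03. In this stretch the spread between the 2 arrays of a line was often wider than the distance from the first line to the last.

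Above the middle, B68 averaged 13.83 ± 0.21, F29 13.85 ± 0.08, D15 13.86 ± 0.02, J15 13.89 ± 0.20 and F82 13.90 ± 0.29, and both arrays of A88 lay at 13.84. B65 averaged 13.90 ± 0.18, H9 13.90 ± 0.03, A40 13.91 ± 0.08, B11 13.91 ± 0.23, F44 13.91 ± 0.11, C10 13.94 ± 0.21 and A77 13.95 ± 0.10. The 6 highest lines were H5 with 14.03 ± 0.02, C31 with 14.03 ± 0.17, H23 with 14.03 ± 0.06, F36 with 14.05 ± 0.28, A91 with 14.06 ± 0.14 and F48 with 14.15 ± 0.05. F48 had 14.12 in replicate 2 and 14.18 in replicate 1.

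No pair of neighbours in this order differed beyond the spread between replicates. Of the 38 gaps between neighbouring lines, 0 exceeded the pooled SD of 0.27 within lines. The largest gap, 0.22, lay between E5 and A35. With at least 6 lines on each side, the largest gap was 0.096, so no break into high and low classes was visible. Line means of 2 arrays with this spread can blur such classes into small steps, so their absence was not tested. The quartiles of the line means were 13.60 and 13.91 about a median of 13.82, and their skew was -1.02, with the longer tail on the low side. Between the highest and the lowest line the levels differed 2.15-fold.

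**Figure D1:**
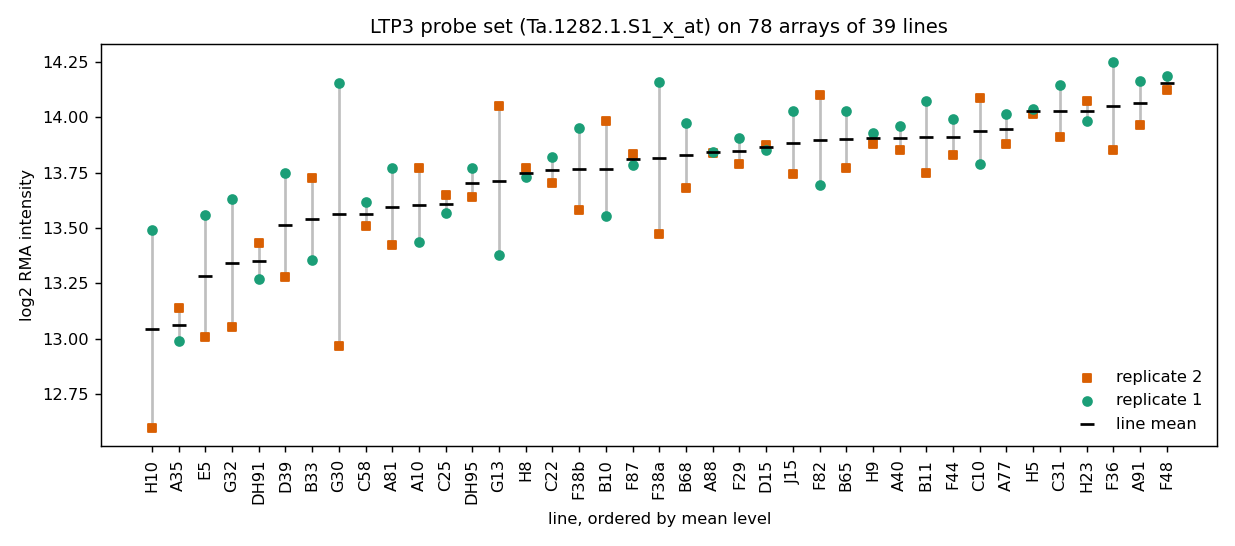
Log2 RMA intensity of LTP3 at the LTP3 probe set (y axis) for each of the 39 lines in order of their mean (x axis), with replicate 2 as squares, replicate 1 as circles, a grey line between them and a black bar at the line mean. The means run from 13.04 in H10 to 14.15 in F48, and the 2 arrays of G30, H10 and F38a are the farthest apart.

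The effect of line on the LTP3 probe set did not pass the threshold of an adjusted p of 0.05. The moderated F test of limma across the 39 lines gave an adjusted p of 0.155 (unadjusted 0.0169), and a permutation of the arrays over the lines, with 100000 draws, gave an unadjusted p of 0.0315. The SD of the line means was 0.26 and the SD within lines 0.27, which corresponds to an intraclass correlation of 0.31, the share of the variance that lies between lines. Line G30, whose arrays went against each other over the probe sets at or above the median level, carries much of the spread within lines. Without its replicate 1 the limma adjusted p was 0.0153, and without its replicate 2 it was 0.0301. These were the only arrays whose removal, 1 at a time, moved the test past the threshold.

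The probe sets annotated on 5A and 5D varied less between lines but were more repeatable. The limma F test gave an adjusted p of 0.0325 at the 5A probe set and 0.0346 at the 5D probe set, which passed. The 5A x-type probe set, with an adjusted p just above 0.05, and the dim LTP3 probe set, with 0.695, did not pass. Thus 2 of the 5 probe sets of the cluster passed, and over all probe sets tested 6.69% did. With the replicate number, and so the scan campaign, as a block, the 5A x-type probe set passed too (0.0141), the LTP3 probe set gave 0.0739, and 5622 probe sets passed in place of 4088. The SD of the line means was 0.13 at the 5A probe set and the 5A x-type probe set and 0.10 at the 5D probe set, against within-line SDs of 0.10, 0.11 and 0.073. Their intraclass correlations were 0.52, 0.48 and 0.59. Leaving out 1 array at a time ended the call at the 5A probe set for 7 arrays, both of A35, both of F48, E5 replicate 2, C25 replicate 1 and A10 replicate 1, with adjusted p-values of up to 0.0647. It ended the call at the 5D probe set for 16 arrays, with values of up to 0.1004. These were both arrays of A35, C25 and H23, replicate 2 of E5, G32, B11, DH91, C58 and H5, and replicate 1 of A10, F48, B33 and A91. The 5A x-type probe set passed without any 1 of 14 arrays, both of G30, F38a, A81, F38b and G13, replicate 1 of E5, H8 and H10, and replicate 2 of C31, with values down to 0.0150. When scan day entered as a fixed term, neither the 5A probe set (limma adjusted p = 0.198) nor the 5D probe set (0.303) passed. With the arrays centred on their medians, the 5A probe set (0.0526) and the 5D probe set (0.0748) did not pass either.

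F48 was the highest line at all 4 bright probe sets, with 14.10 ± 0.02 at the 5A probe set, 14.22 ± 0.03 at the 5A x-type probe set and 14.19 ± 0.09 at the 5D probe set. The lowest line was H10 at the LTP3 probe set, C25 at the 5A probe set with 13.62 ± 0.07, and A35 at the 5A x-type probe set with 13.69 ± 0.08 and at the 5D probe set with 13.72 ± 0.08. The highest line exceeded the lowest 1.39-fold, 1.44-fold and 1.38-fold at these 3 probe sets. Of the 10 lowest lines at each bright probe set, 6 were shared by all 4 (A35, B33, DH91, E5, G32 and H10), and of the 10 highest, 5 were shared (A91, F36, F48, H23 and H5). Of 38 gaps between neighbouring lines, 1 exceeded the pooled SD at the 5D probe set, 0.0897 between G32 and C25. At the 5A probe set and the 5A x-type probe set 0 did.

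The bright probe sets ordered the lines in a similar way. Over the 39 line means, the LTP3 probe set correlated with the 5A x-type probe set at r = 0.92, with the 5A probe set at 0.86 and with the 5D probe set at 0.85. Among the other 3 the correlations were 0.94 to 0.97. The points share the same arrays and the probes may share target sequences, so these values describe how alike the signals are and do not separate the genes. They differed in scale: the lowest line lay 1.11 below the highest at the LTP3 probe set, and at most 0.53 below it at the other 3.

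**Figure D2:**
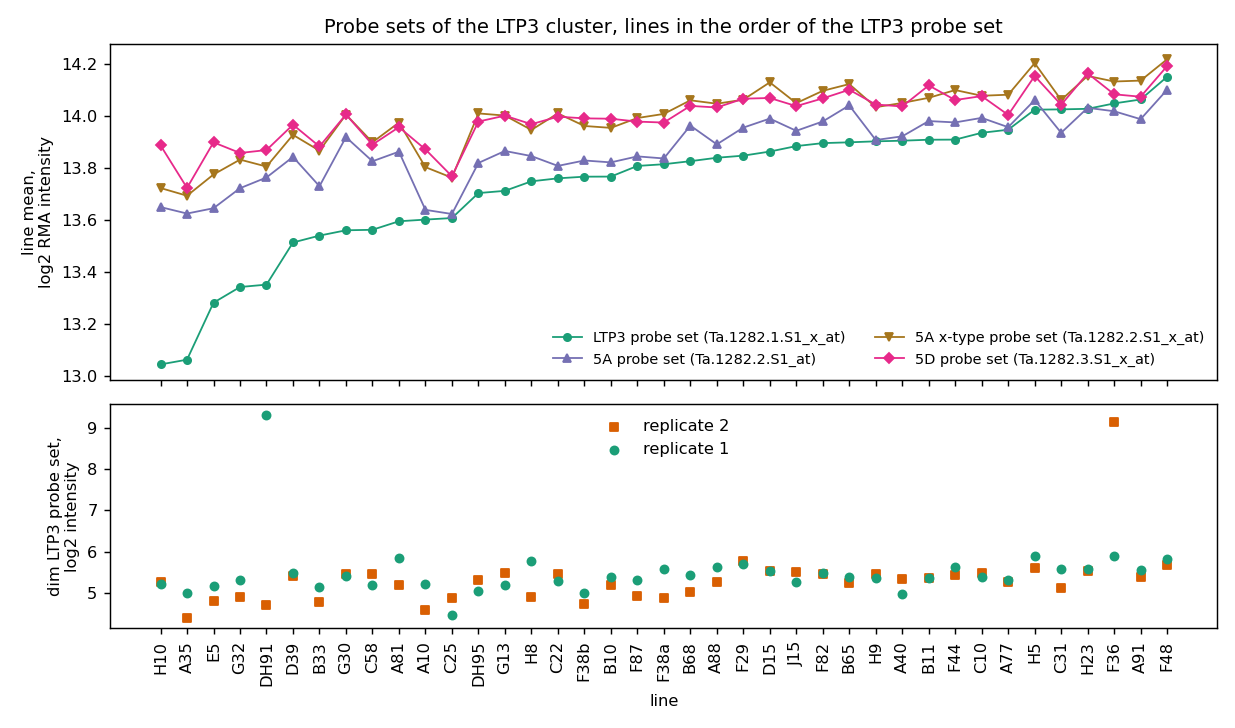
Upper panel: line means of log2 RMA intensity (y axis) at the 4 bright probe sets of the cluster, with the 39 lines in the order of the LTP3 probe set (x axis). Lower panel: both arrays of each line at the dim LTP3 probe set, where DH91 replicate 1 at 9.33 and F36 replicate 2 at 9.14 stand above all other arrays.

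A35 was the 1 line of 39 whose level at the LTP3 probe set differed from the mean of the other 38 lines at the threshold. A35 averaged 13.06 ± 0.11 (SD, n = 2) and the other lines 13.76, a difference of -0.70 (SE 0.19, limma adjusted p = 0.0366), or 1.62-fold lower in A35. Both arrays of A35 were low, but the groups overlapped: 4 arrays of other lines, replicate 2 of H10, G30, E5 and G32, were at or below the higher A35 array. The contrast of A35 called 2.14% of all probe sets, 0.455% lower and 1.68% higher.

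The same contrast gave -0.31 at the 5A x-type probe set (A35 13.69 and the other lines 14.00, limma adjusted p = 0.0441) and -0.28 at the 5D probe set (A35 13.72 and the other lines 14.01, limma adjusted p = 0.0110). At the 5D probe set the A35 arrays were the lowest and the third lowest of the 78. At the 5A probe set the difference was -0.26 (limma adjusted p = 0.0935) and at the dim LTP3 probe set -0.73 (0.532), and neither passed. Thus A35 averaged lower at all 5 probe sets of the cluster, and the difference passed at 3 of them. The call at the 5A x-type probe set ended with scan day as a random block (0.0564), with the arrays centred on their medians (0.0721), and without A40 replicate 2 or F48 replicate 1, where the difference was still -0.31. It also ended without A35 replicate 1 (-0.37, 0.266) or replicate 2 (-0.25, 0.670), as that at the 5D probe set did (-0.34, 0.131, and -0.22, 0.478). Under a fixed term for scan day both ended while the differences hardly moved, to -0.28 at the 5A x-type probe set (0.674) and -0.28 at the 5D probe set (0.492).

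H10 was as low as A35 but did not pass. It averaged 13.04 ± 0.63 and the other lines 13.76, a difference of -0.72 (SE 0.19) with an unadjusted p of 0.000464 and a limma adjusted p of 0.134, while the unadjusted p of A35 was 0.000624. The p-values are adjusted within the contrast of each line, and so depend on how many probe sets moved in that line. The calls of the 2 lines are therefore not on 1 scale and do not show that the lines differ from each other. At the other bright probe sets the contrast of H10 was -0.23, -0.28 and -0.11, with limma adjusted p-values from 0.292 to 0.850.

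The lower level in A35 at the LTP3 probe set remained in the same direction with either of its arrays left out and with scan day as a term, but did not pass in these fits. Without A35 replicate 1 the difference was -0.63 (limma adjusted p = 0.423), and without replicate 2 it was -0.78 (0.276). Each of these fits leaves A35 with 1 array, which is assumed to vary like the arrays of the other lines. A35 replicate 1 was the only array scanned on its day, so a fixed term for scan day removes it from the comparison, and the difference was then -0.54 (limma adjusted p = 0.696). Within the day of its replicate 2, A35 had 13.14 and the 9 other arrays averaged 13.80. Means of the 12 scan days with at least 2 arrays ranged from 13.35 to 13.98 at this probe set.

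The 2 replicates of a line agreed only in part. Between replicate 2 and replicate 1 over the 39 lines, Pearson's r at the LTP3 probe set was 0.35 (two-sided permutation p = 0.0266) and Spearman's rho 0.34 (p = 0.0336). Without A35 and DH91, the 2 lines farthest from the median in replicate 1, r was 0.25 (permutation p = 0.142). That p did not pass, and leaving out extreme lines also narrows the range of levels. Of the 39 lines, 27 lay on the same side of the median in both replicates. Among the probe sets at or above the median level, 19.0% had an r at least as high.

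The largest gaps between the 2 arrays of a line were in G30, with 12.97 in replicate 2 and 14.15 in replicate 1, in H10 with 0.89 between its arrays and in F38a with 0.68. G13, G32 and E5 also differed by more than 0.5, and the median gap was 0.24. In 5 of these 6 lines replicate 2 was the lower array, and in G13 replicate 1 was.

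Agreement was closer at the probe sets annotated on 5A and 5D. The r between replicates was 0.58 at the 5A probe set (two-sided permutation p = 0.00015), 0.55 at the 5A x-type probe set (0.00026) and 0.64 at the 5D probe set (3e-05), with rho of 0.54, 0.49 and 0.58. Without the 2 lines farthest from the median, r was 0.54, 0.56 and 0.52. At the dim LTP3 probe set r was 0.056 (permutation p = 0.570) and rho 0.36 (p = 0.0262), and without DH91 and C25 r was 0.47 (p = 0.00041). These are 5 relations with unadjusted p-values. An r at least as high was found at 4.46%, 5.34% and 2.96% of the probe sets at or above the median level for the 3 probe sets on 5A and 5D.

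**Figure D3:**
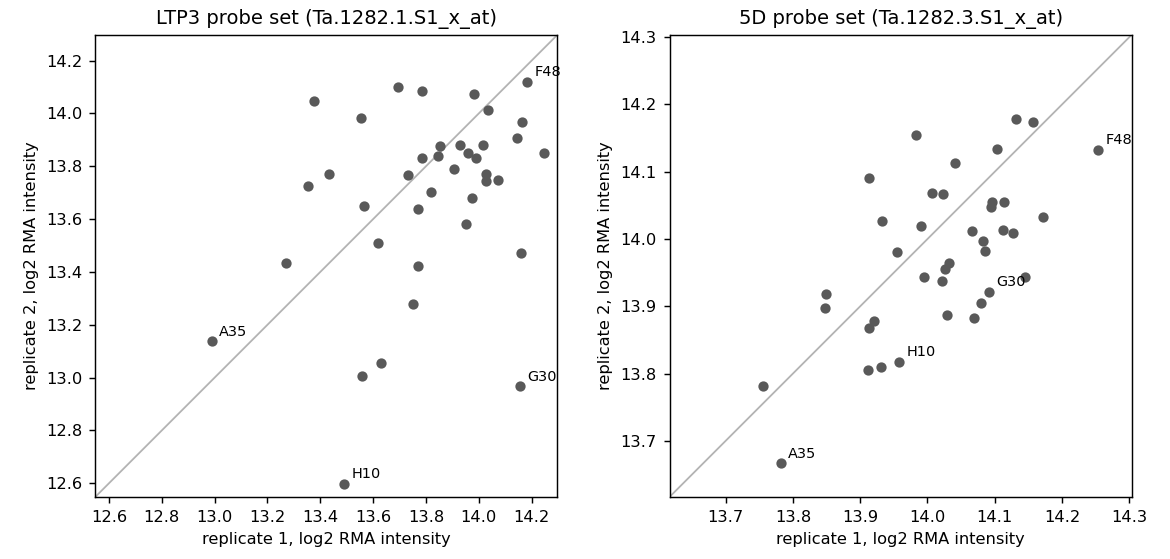
Log2 RMA intensity in replicate 2 (y axis) and replicate 1 (x axis) for the 39 lines at the LTP3 probe set (left) and the 5D probe set (right), with the line of equal levels in grey. A35 is low in both replicates at both probe sets, F48 is high in both, and G30 and H10 lie far below the line of equal levels at the LTP3 probe set.

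Replicate 2 averaged below replicate 1 at all 5 probe sets, and the difference passed at 2 of them. The LTP3 probe set averaged 13.68 ± 0.35 in replicate 2 and 13.81 ± 0.29 in replicate 1 (SD, n = 39 each), a within-line difference of -0.13 (SE 0.057, limma adjusted p = 0.0882), which did not pass, and replicate 2 was the lower array in 26 of 39 lines. The differences of -0.06 at the 5A probe set (limma adjusted p = 0.0422) and -0.07 at the 5A x-type probe set (0.0348) passed. The first ended with the arrays centred on their medians (0.0600), and both ended without line as a block (0.153 and 0.128). Those of -0.04 at the 5D probe set (0.0971) and -0.18 at the dim LTP3 probe set (0.387) did not, although the 5D probe set passed with the arrays centred on their 75th percentile (0.00699) and without G30, H9, F82 and G13 (0.0413). Over all probe sets 28.7% passed, 13.2% with the lower level in replicate 2, so the 2 of 5 in the cluster stand against a wide background. Without either array of G13, which drops the line, the difference at the LTP3 probe set passed (limma adjusted p = 0.0385). The call at the 5A x-type probe set ended without any 1 of G30, C31, B68, F38a, A81, F38b and H10, with adjusted p-values of up to 0.0612. That at the 5A probe set ended without any 1 of these 7 lines or of E5, A88, F36, DH91, D15, F29, H23, H5, B65, B33 and F44, with values of up to 0.0711.

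The dim LTP3 probe set read differently from the rest of the cluster. On 76 arrays it lay between 4.39 and 5.89 with a median of 5.36, and on the other 2 arrays it reached 9.33 (DH91 replicate 1) and 9.14 (F36 replicate 2). The sister arrays were at 4.69 (DH91 replicate 2) and 5.89 (F36 replicate 1), so neither line was high on both arrays. The lower of the 2 high arrays exceeded the next by 3.24. These 2 arrays were the highest 2 of the 78 at 58 probe sets, and the dim LTP3 probe set was the only 1 of them at which both exceeded all other arrays by at least 1. At the LTP3 probe set the same arrays read 13.27 (DH91 replicate 1) and 13.85 (F36 replicate 2), within the range of the others.

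F36 passed its contrast at the dim LTP3 probe set through that 1 array: F36 averaged 7.52 ± 2.29 (SD, n = 2) and the other lines 5.34, a difference of 2.17 (limma adjusted p = 0.0102). The contrast of F36 called 0.913% of all probe sets, 0.561% higher. Without both high arrays the effect of line on the dim LTP3 probe set passed (limma adjusted p = 0.0441), and the difference of A35 from the other lines, -0.62, passed too (0.0458), an alternative chosen after the values were seen. Without DH91 replicate 2 alone, DH91 is represented by its high array, and the effect of line gave an adjusted p of 0.000261. Over the remaining 76 arrays the dim LTP3 probe set correlated with the LTP3 probe set at r = 0.49 and with the 5A probe set at r = 0.76.

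The line means of the LTP3 probe set were spread more widely than those of most features of its brightness. Among the 100 probe sets with the highest mean level, all at 13.27 or above, the SD of the line means ranged from 0.038 to 0.27 with a median of 0.081. The LTP3 probe set, with 0.26, had the fourth largest. The 5A x-type probe set ranked 13, the 5A probe set 15 and the 5D probe set 27. Of the 100, 5 had an effect of line past the threshold, against 6.69% of all probe sets and 3321 of the 30558 at or above the median level. The 5A probe set and the 5D probe set were 2 of those 5. The SD of line means includes the spread between replicates. At the LTP3 probe set the SD within lines was 0.27, and the effect of line did not pass (limma adjusted p = 0.155).

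**Figure D4:**
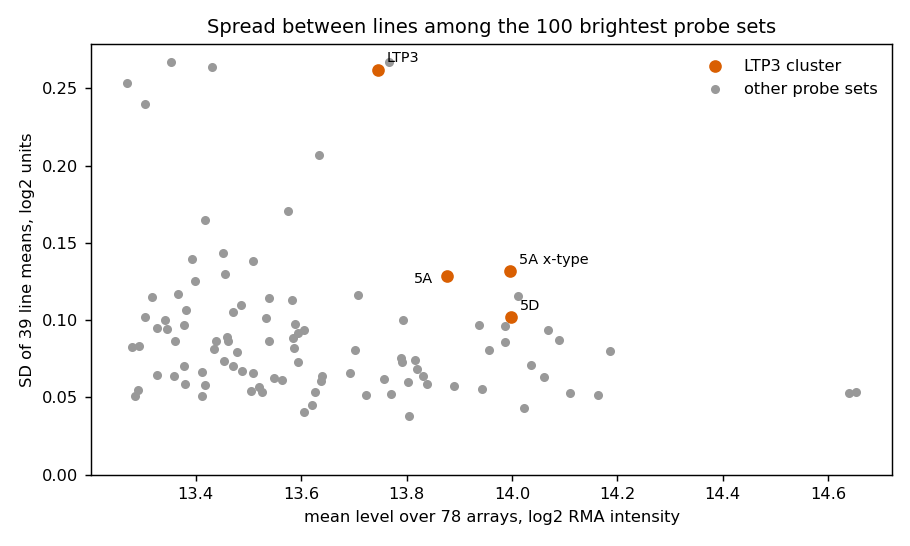
SD of the 39 line means in log2 units (y axis) and mean log2 RMA intensity over 78 arrays (x axis) of the 100 brightest probe sets, with the 4 of the LTP3 cluster in orange and the other probe sets in grey. The LTP3 probe set lies among the largest SDs at 0.26, and the median of the 100 is 0.081. These SDs include the spread between replicates.

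Probe sets with a line pattern like that of the LTP3 probe set were sought by Pearson's r over the 39 line means, among 30553 probe sets outside the cluster at or above the median level. The median r was -0.04, with 5% below -0.55 and 5% above 0.54, and 25 probe sets reached 0.8. All values share the same 78 arrays and the same seed samples. Of the 20 most alike, 16 had no annotated gene, so most of the pattern could be described only by probe set.

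The most alike was TaAffx.106302.1.S1_x_at, with r = 0.95 and a mean level of 12.64. It averaged 11.22 in A35 and 12.68 in the other lines, a difference of -1.46. Ta.30527.1.S1_x_at followed with r = 0.90, Ta.1526.1.S1_x_at with 0.90, Ta.1526.1.S1_at with 0.90 and Ta.30527.1.S1_at with 0.89, and those named Ta.1526.1 are annotated to LOC542871. All 5 were highest in F48 and lowest in A35. In A35 the 4 that follow lay -1.03 to -1.12 from the other lines. These probe sets were chosen for following line means in which F48 is highest and A35 next to lowest, so their levels in both lines are a description, with no test.

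These 5 probe sets spanned wider ranges than LTP3 itself. Between F48 and A35 the levels differed 4.80-fold at TaAffx.106302.1.S1_x_at, 3.79-fold at Ta.30527.1.S1_x_at and 3.83-fold at Ta.1526.1.S1_x_at. The limma F test over lines gave adjusted p-values of 0.257, 0.0454 and 0.000461 for these 3. For TaAffx.106302.1.S1_x_at, r with LTP3 was 0.95 over replicate 2 and 0.94 over replicate 1, the same arrays whose means had chosen it.

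The opposite pattern was found at Ta.21172.1.A1_x_at (r = -0.85), Ta.4534.1.S1_at (-0.83) and Ta.21172.1.A1_at (-0.82), none with an annotated gene name. Ta.4534.1.S1_at averaged 6.75 in A35 and 5.87 in the other lines, a difference of 0.88. Ta.21172.1.A1_x_at was highest in A35, at 8.19, and lowest in F48, at 7.29.

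**Figure D5:**
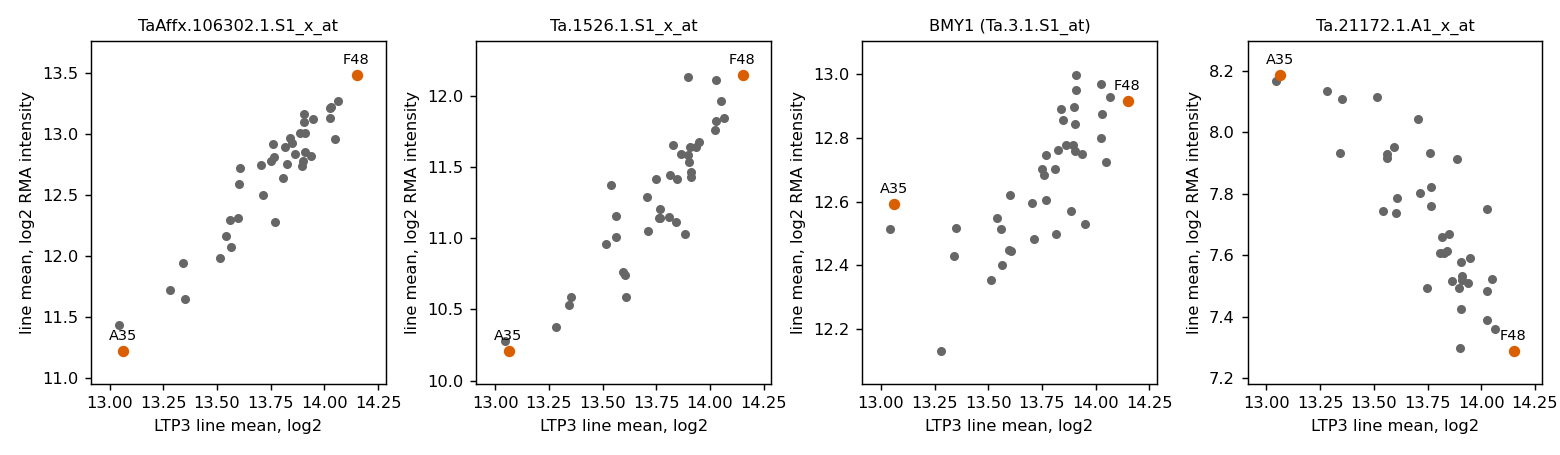
Line means of log2 RMA intensity (y axes) of 4 probe sets by the line mean of LTP3 at the LTP3 probe set (x axes), 39 lines each, with A35 and F48 in orange. The first 3 go with LTP3, closely at TaAffx.106302.1.S1_x_at (r = 0.95) and loosely at BMY1 (r = 0.72), and Ta.21172.1.A1_x_at runs the opposite way (r = -0.85).

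Of 125 probe sets with a gene name other than a locus number, 5 reached r = 0.5, and their median r was 0.12. BMY1, a beta-amylase that releases maltose from starch, had r = 0.72 and varied between lines (limma adjusted p = 0.0212), with a highest mean of 12.998 in B11 and a lowest of 12.13 in E5. PRO1, a profilin that binds actin, had r = 0.70. PsbP (OEE2), an extrinsic protein of the oxygen-evolving complex of photosystem II, had 0.62. Each gene is given by its most extreme probe set, and others of the same gene can differ. A brighter PRO1 probe set, with a mean level of 13.41, had r = -0.02, and a brighter one of PsbP, at 12.18, had 0.27. 6-FEH, a fructan exohydrolase that breaks down fructans, had 0.57 and the smallest adjusted p for line among these 8 genes, with a 10.7-fold range and a limma adjusted p of 3.60e-05.

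Further down, cys1 had r = 0.52, with 10.66 in A35 and 11.16 in the other lines, and without A35 its r was 0.38. PER1, a peroxidase, had 0.47, at2G04570 0.46 and FBP, a fructose bisphosphatase, 0.46. Another probe set of cys1 had r = 0.43, another of PER1 0.03 and another of FBP 0.12.

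The named genes least like LTP3 were la-17 (r = -0.52), RPL9, a ribosomal protein (-0.47), WZF1, a zinc finger protein (-0.43), TBP1, the TATA-binding protein (-0.38), and UBC1, a ubiquitin-conjugating enzyme (-0.33). WZF1 was highest in A35, where it averaged 9.39 against 7.10 in the other lines. Neither that contrast (limma adjusted p = 0.130) nor its effect of line (0.205) passed.

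Groups of annotated seed genes were set beside LTP3 in the same way. No lipid transfer protein other than LTP3 carried a name in the annotation used, and no named gene matched the puroindoline or the cuticle and wax lists. Of the 13 probe sets of enzyme inhibitors and thionins, small cysteine-rich defence proteins of the endosperm among them, 10 had an effect of line past the threshold, against 6.69% of all probe sets, and 0 differed in A35, against 2.14%. The 8 at or above the median level summed to an intensity of 261 in A35 and to between 230.0 and 7171 in the other lines, with a median of 482, and had r from 0.36 to 0.42 with LTP3. The highest were ATI, an amylase and trypsin inhibitor (Ta.58.1.S1_at, r = 0.42, line effect adjusted p = 0.00208 by limma), and CIII, an amylase inhibitor (Ta.1315.1.S1_at, 0.41 and 0.00415). ATI averaged 5.34 in A35 and 7.00 in the other lines, but that contrast did not pass (limma adjusted p = 0.342).

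Of 17 storage protein probe sets 1 had an effect of line and 0 differed in A35, against 6.69% and 2.14% of all probe sets. The same shares stand beside the counts of the other lists in this paragraph. The 4 at or above the median level had a median r of 0.33, led by abu-7, a low molecular weight glutenin (r = 0.42), and ALP, an avenin-like protein (0.34). Another, brighter probe set of ALP had r = 0.12. Of 7 peroxidase and pathogenesis-related probe sets 0 had an effect of line, and 1, Prx1 at Ta.6572.3.S1_at, was lower in A35, with 4.57 in A35 and 5.12 in the other lines (limma adjusted p = 0.0389). The other Prx1 probe sets did not pass. Both probe sets of cys1 were in the list of cysteine proteinases and cystatins, and 1 was lower past the threshold in A35 (limma adjusted p = 0.0296). Over all 30558 probe sets at or above the median level, 3321 had an effect of line, 234 were lower in A35 and 787 higher.

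Of 34 photosynthesis probe sets 1 had an effect of line and 0 differed in A35, against the same 6.69% and 2.14% of all probe sets, with a median r of 0.23 over the 10 at or above the median level. The 10 probe sets of dehydrins and late embryogenesis proteins gave 0 of either, and the 2 at or above the median level, both of rab (Rab15), had r of -0.17 and -0.13. The single heat shock probe set, hsp16.9A, had an effect of line and a mean level of 4.29, below the median of all probe sets.

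Markers of seed tissues differed in how they went with LTP3, and their part in its levels was not tested. Dividing tissue, 28 probe sets, had a median r of -0.02 and green pericarp, 31 probe sets, 0.16 over the 7 at or above the median level. Endosperm and aleurone protein, 21 probe sets, had a median r of 0.35 over the 6 at or above that level, and endosperm starch, 4 probe sets, 0.10 over 3, with AGP-S highest at 0.16 and AGA.1 at 0.10. Anther and pollen genes, which could remain on young seed, had 0.17 over 3 of 6 probe sets.

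The summed intensities of these markers in A35 lay within the range of the other lines, near its low end for endosperm. Such sums rest on the brightest members, which for green pericarp are rbcl probe sets at up to 14.65. Over members at or above the median level, the median difference of A35 from the other lines was -0.32 for green pericarp. It was -0.30 for endosperm starch, -0.29 for endosperm and aleurone protein and 0.04 for dividing tissue, against 0.02 over all probe sets at that level. Endosperm starch summed to 2372 in A35 and to between 2275 and 4784 in the other lines, with a median of 2963. Endosperm and aleurone protein summed to 1413 in A35 and to between 1234 and 4164 in the other lines, with a median of 1697. Green pericarp summed to 54904 in A35 and to between 49558 and 57717 in the other lines, with a median of 55756, and dividing tissue to 119920 in A35 and to between 106254 and 130907 in the other lines, with a median of 118852. None of the marker probe sets in these 4 lists, nor of those of anther and pollen, passed the contrast of A35. That contrast called 2.14% of all probe sets, so few calls would be found in lists of this size, and the absence of calls does not show equal tissue shares.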

How the data were processed

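Affymetrix wheat arrays were hybridised with labelled mRNA of developing seed, 2 arrays for each of 39 lines. The deposited values are RMA intensities on a linear scale, in which the authors had corrected background, normalized the arrays by quantiles and summarised the probes, as RMA does, per the submitters' processing notes. The version is not given in the sources used here. A deposited instrument record for each array, per the file headers, gave the other quantities used, scan day and project name. The test plan assumed log2 values, so log2 of each intensity was taken. Of 61290 probe sets, 111 controls and 64 reporters were left out.

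Linear models were fitted with limma 3.58.1 in R 4.3.3 over all 78 arrays and all 61115 probe sets, with Benjamini-Hochberg adjustment over all of them and a threshold of 0.05. The models were a moderated F test over lines, each line against the mean of the other 38, and replicate 2 against replicate 1 with line as a block. All tests of differences were two-sided. The scripts were tested on simulated data. Arrays carry no read depth, and their number limits the precision. Nothing says beyond the labels that replicates came from separate plants, so p-values measure the spread between these samples.

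Gene names came from the platform annotation, which gives a single symbol to 1273 probe sets, more than 1 to 0 and none to 59842, and 1272 matched IWGSC CS RefSeq v2.1. No sequences were used here. The named genes were all probe sets of the cluster, the 5 most and 3 least like the LTP3 probe set, the 8 most and 5 least alike with a gene name, and the leading 2 of each list. Lines were named where lowest, highest, farthest apart between arrays or past the threshold. The members and lists were chosen with earlier results of these data known. Replicate numbers were checked for pairing over 741 pairs of lines. Replicate differences correlated at a median of 0.14 (range -0.57 to 0.69), with 422 pairs above 0.1. The main fit over lines did not treat the numbers as pairs. The check does not show that arrays of a number share no shift, and 28.7% of all probe sets differed between the numbers. A fit with the replicate number as a block is therefore given beside the main fit. Alternatives changed scan day, weights, scaling, filter, prior and the arrays used.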

Additional observations from a re-analysis of the deposited data

How the results depend on the processing

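The differences of A35 from the other lines and of replicate 2 from replicate 1 kept their direction at all 5 probe sets under the alternatives run, and those of H10 and F36 were not rerun. At the LTP3 probe set the effect of line passed with array weights (limma adjusted p = 0.0315) and without the 4 lines whose arrays agreed least, G30, H9, F82 and G13 (0.0140). It did not pass under the other 11 alternatives, and leaving out 1 array at a time gave 0.0153 to 0.301. The lower level in A35 no longer passed with scan day as a fixed term (0.696), where the difference was -0.54 and A35 replicate 1 stands alone on its day, or on linear intensities (0.0627). It passed under the other 11, with the smallest p without the same 4 lines (0.00803), and leaving out 1 array at a time gave 0.00964 to 0.423. Replicate 2 was lower than replicate 1 past the threshold with arrays centred on their 75th percentile (0.0218) and without the same 4 lines (0.0386), and leaving out 1 array at a time gave 0.0385 to 0.152. The replicate number coincides with scan campaign, and the main fit over lines does not include it. With the number as a block, the effect of line gave a limma adjusted p of 0.0739 at the LTP3 probe set. The 5A x-type probe set then passed (0.0141), and the count over all probe sets was 5622 in place of 4088. With this block A35 gave 0.0218. By its lowest array the LTP3 probe set ranked 182, and the highest likeness was 0.913 by Spearman's rho. At the 5A x-type probe set the line effect passed under 8 of 13 alternatives, and the 5A probe set and the 5D probe set each lost it under 4 of 13. Why these values moved was not tested beyond the arrays each alternative removed. With 2 arrays per line, differences within about 0.27 at the LTP3 probe set lie within the replicate spread.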
